A study of Ursus arctos with 12 samples.

Results

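The genes of fatty acid uptake and beta-oxidation were followed here in the skeletal muscle of the brown bear across the seasons. The module held 42 genes named by symbol. They ran from the membrane proteins that bring fatty acids into the muscle fibre to the mitochondrial and peroxisomal enzymes that shorten them. The list was chosen with earlier results of these data known. The only measured value in its rule was a minimum of 30 reads summed over the 12 libraries. Of the 42, 40 were listed in the count table under these symbols, and each of the 40 had at least 30 reads summed over the 12 libraries. They were tested among 17290 genes of the 30249 listed. ACOT2 and SLC22A5 were not analysed here. The libraries came from the vastus lateralis, a thigh muscle, of 6 free-ranging brown bears (Ursus arctos) of 2 to 3 years of age. Every bear was biopsied under capture in winter hibernation (February) and in its summer active period (June) of the same year, so that each season had 6 libraries, and the labels name no treatment. Hibernation, fasting, inactivity and time of year went together in these wild animals and cannot be told apart. A biopsy holds other cells besides muscle fibres, and fewer cells of a type and less RNA per cell cannot be told apart in it.

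Long-chain fatty acids enter a muscle fibre with the help of CD36 and the SLC27 transporters, are held in the cytosol by the binding protein FABP3, and are activated to acyl-CoA by the long-chain synthetases. The carnitine shuttle then moves the acyl group into the mitochondrial matrix, and CPT1, its entry enzyme, is inhibited by malonyl-CoA. In the matrix a flavin-dependent dehydrogenase, a hydratase, an NAD-dependent dehydrogenase and a thiolase act in turn and release acetyl-CoA, while the electron transfer flavoprotein passes the flavin electrons to the respiratory chain. A hibernating bear does not eat and draws on its fat stores.

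The authors counted reads per gene, and the deposited counts summed to between 20191068 and 27283155 reads per summer library and between 16742406 and 32140160 per winter library. Levels are given as CPM, reads of a gene relative to the size of its library, scaled by edgeR's TMM factors, and changes as the log2 fold change of winter over summer ± its standard error (n = 6 bears per season). A gene was called where edgeR's quasi-likelihood test gave a Benjamini-Hochberg adjusted p below 0.05 over all 17290 genes. Season was the only term of this test, so it did not pair the 2 libraries of a bear. On all genes the seasons separated along the principal component that held 41.5% of the variance. On the next component, with 14.6%, bear 1509 in winter stood apart at −98.6, where the rest of the winter libraries ranged from 6.35 to 23.1. Of the 8 skeletal muscle markers, which include the creatine kinase CKM and titin, none was at 0 in any library, and they summed to 111853 to 187137 CPM in summer and to 118872 to 152920 CPM in winter, with 1 called higher and 3 lower.

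The module moved mostly downward in winter, while 7 of its genes rose. These were the carnitine shuttle genes CPT1A, CPT1B and SLC25A20, malonyl-CoA decarboxylase (MLYCD), the synthetase ACSL4, the electron acceptor ETFDH and the thiolase ACAA2. They were up-regulated by 1.56-fold to 2.32-fold. The larger number of falls came from genes of uptake, activation, the dehydrogenases and the later steps of the spiral, and reached 2.37-fold for ACAD9. Among the dehydrogenases for straight chains, however, ACADVL, ACADL, ACADM and ACADS were not called. The calls of the uptake genes FABP3 and SLC27A4 were lost when certain single bears were left out. Of the 40 genes, 7 (17.5%) were called higher in winter, where 19.6% of all tested genes were, and 19 (47.5%) were called lower, where 19.9% of all tested genes were. The other 14 were not called. At the stricter limits that the study sets for a differentially expressed gene (an adjusted p under 0.01 with a winter level over 1.3 times or under 0.77 times that of summer), 7 were higher and 12 lower, each direction holding 12% of all tested genes. The median log2 fold change over the 40 genes was −0.41, and −0.00 over all tested genes. All 7 rises were seen in 6 of 6 bears, and 15 genes were lower in 6 of 6 bears, against 18.4% and 19.0% of all tested genes. All winter libraries lay above all summer libraries for 6 of the 40 genes and below them for 8, against 9.12% and 8.21% of all tested genes. Without bear 1509, whose winter library stood apart, 7 genes were called higher and 18 lower. With the bear added to the test as a replicate block, 7 were called higher and 20 lower.

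**Figure D1:**
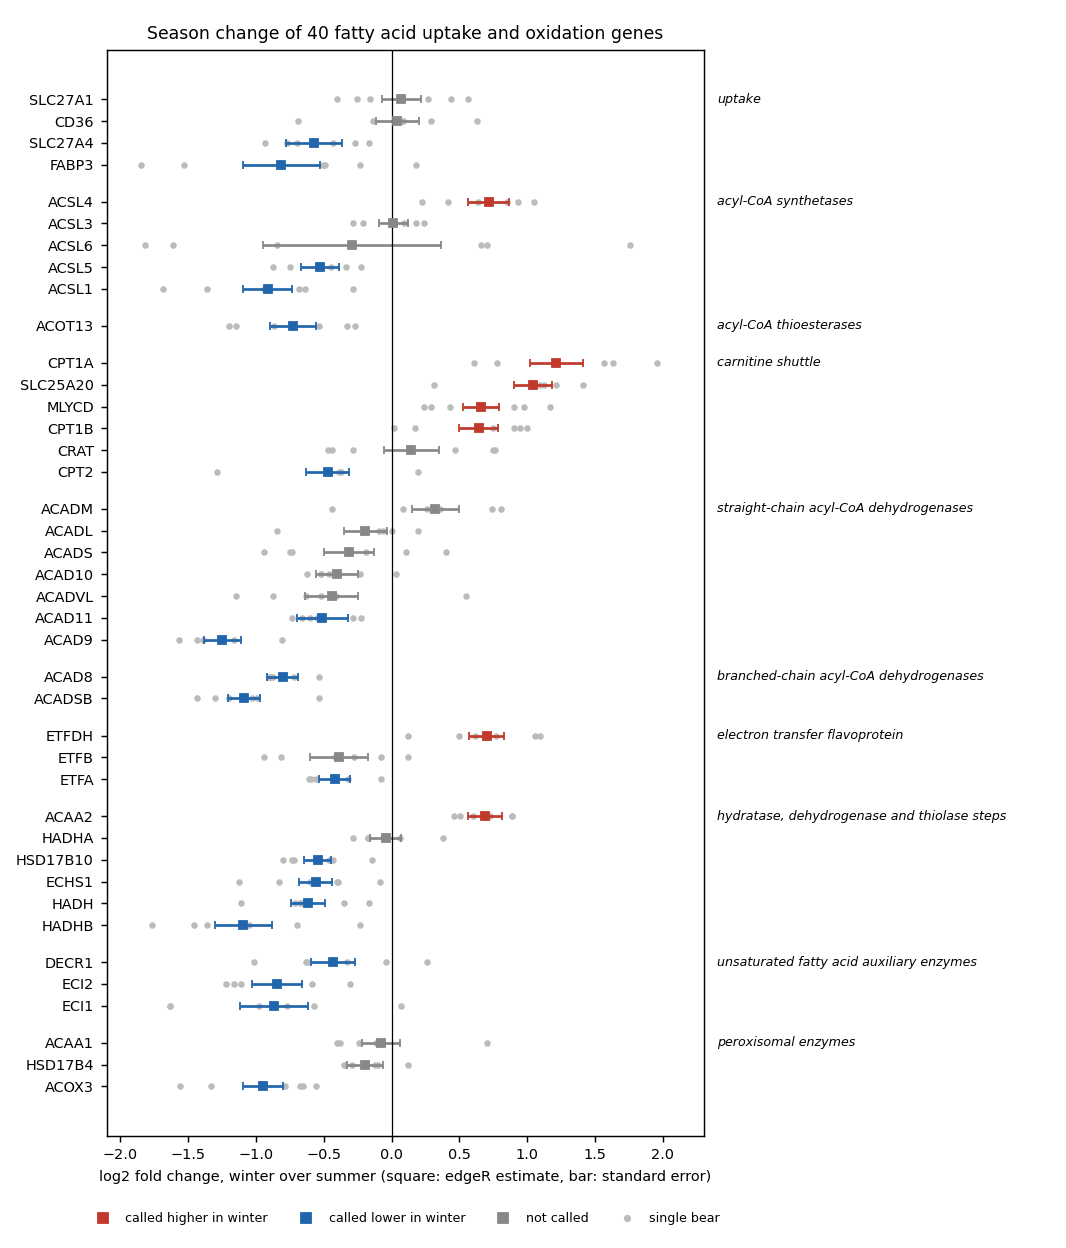
Log2 fold change of winter over summer for the 40 genes, grouped by role and ordered by size within a role. Squares are edgeR estimates with bars of 1 standard error (red for genes called higher, blue for lower, dark grey for not called), and light grey dots are the differences in the 6 single bears. The carnitine shuttle group, which includes MLYCD, is the only role group with more rises (4) than falls (1). Of all tested genes, 19.6% were called higher and 19.9% lower.

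Of the 4 uptake genes 2 were called lower and 0 higher, where 19.9% and 19.6% of all tested genes were. The 2 were the cytosolic carrier FABP3 and the transporter SLC27A4, while CD36 and SLC27A1 did not pass the test. CD36, the fatty acid translocase of the plasma membrane, had 428 to 706 CPM in summer (median 539) and 437 to 744 CPM in winter (median 577). The seasons overlapped almost entirely, 4 bears were higher and 2 lower in winter, and the log2 fold change was 0.04 ± 0.16 (adjusted p = 0.852). FABP3, the heart and muscle fatty acid-binding protein, had 854 to 2674 CPM in summer (median 1334) and 552 to 1147 CPM in winter (median 907). It was lower in 5 of 6 bears with a log2 fold change of −0.81 ± 0.28 (adjusted p = 0.0349), and the ranges overlapped. The bears differed widely in this gene, with a winter minus summer difference of −1.84 log2 CPM in bear 1317 and of 0.18 in bear 1511. Without bear 1305 the change was −0.61 (adjusted p = 0.117) and without bear 1317 it was −0.62 (0.133), so the FABP3 call needed both of these bears.

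Of the SLC27 acyl-CoA synthetase transporters, SLC27A1 (FATP1) gave 0.07 ± 0.14 (adjusted p = 0.709), with 3 bears up and 3 down. SLC27A4 (FATP4) was a weakly counted gene, with 35 to 96 reads per library. It had 2.31 to 4.58 CPM in summer (median 3.06) and 1.43 to 2.65 CPM in winter (median 2.39). The fall of −0.57 ± 0.21 was seen in 6 of 6 bears, and its adjusted p of 0.0394 did not hold when bear 1305, 1316, 1317, 1509 or 1511 was left out (0.0566 to 0.0944). CD36 and members of the FABP family are also made by endothelial cells and adipocytes. The 10 endothelial markers summed to 717 to 1057 CPM in summer and to 519 to 580 CPM in winter, with 6 of 10 called lower, 1 higher and none at 0 in any library. The 7 adipocyte markers tested of 8 named summed to 300 to 519 CPM in 5 summer libraries, to 1424 CPM in the summer library of bear 1316, and to 217 to 468 CPM in winter. FABP4 held most of these sums, with a median of 418 CPM in summer and 238 CPM in winter. Of the 7, FABP4 was called lower and LEP, which was at 0 in some libraries, higher. The 5 not called went both ways over the bears. ADIPOQ was higher in winter in 3 of 6 bears, PLIN1 and CIDEA in 4, CIDEC in 2 and RETN in 1. The part of these cells in the change of FABP3 and SLC27A4 was not tested.

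The 5 long-chain acyl-CoA synthetases, which trap fatty acids as acyl-CoA, went in both directions, with 1 called higher and 2 lower. These are 20% and 40%, where 19.6% and 19.9% of all tested genes were called. ACSL1, the main isoform of muscle and fat, had 680 to 1140 CPM in summer (median 776) and 299 to 585 CPM in winter (median 438). Every winter library lay below every summer library, and the log2 fold change was −0.91 ± 0.18 (adjusted p = 0.0013). The fall was smallest in bear 1511 (−0.29) and largest in bear 1317 (−1.69). ACSL4, which prefers arachidonic acid, did the opposite, with 104 to 137 CPM in summer (median 124) and 138 to 262 CPM in winter (median 202). Here every winter library lay above every summer library, for a log2 fold change of 0.72 ± 0.15 (adjusted p = 0.00227). ACSL5, an isoform with few reads in this muscle (95 to 242 per library), fell by 0.52 on the log2 scale (SE 0.14, adjusted p = 0.00879) in 6 of 6 bears. ACSL3, known from the lipid droplet surface, had 23.5 to 29.6 CPM in summer and 20.5 to 30.7 CPM in winter, and its change of 0.01 ± 0.11 did not pass the test (adjusted p = 0.934). ACSL6, with 2 to 85 reads per library, differed between bears from −1.82 to 1.75, and its change of −0.29 ± 0.65 did not pass the test (adjusted p = 0.75).

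ACOT13, a mitochondrial thioesterase that splits acyl-CoA back into free fatty acid, had 15.5 to 29.2 CPM in summer (median 22.5) and 9.20 to 17.7 CPM in winter (median 13.8). It was lower in 6 of 6 bears, the ranges overlapped, and the log2 fold change was −0.73 ± 0.17 (adjusted p = 0.00454).

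In the carnitine shuttle group, in which MLYCD was counted, 4 of the 6 tested genes were called higher and 1 lower. These are 66.7% and 16.7%, where 19.6% and 19.9% of all tested genes were called. The median log2 fold change of the 6 was 0.65. CPT1A, the isoform of the entry enzyme best known from liver, had the largest rise of the 40 genes. Its summer levels were spread out, at 38.0 CPM in bear 1305, 23.5 in bear 1316, 59.6 in bear 1317, 51.8 in bear 1509, 31.6 in bear 1511 and 28.1 in bear 1512. In winter the same bears stood at 87.9, 91.7, 90.8, 88.7, 93.8 and 87.4 CPM. The winter libraries thus lay close together and above every summer library, and the fold change was 2.32 (log2 fold change 1.22 ± 0.19, adjusted p = 0.000298). The bear with the lowest summer level, 1316, had the largest rise (1.96), and the bear with the highest, 1317, the smallest (0.61). With winter levels so nearly alike, this order follows from the summer levels alone and is no separate result.

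CPT1B, the muscle isoform of CPT1, had 215 to 321 CPM in summer (median 235) and 253 to 438 CPM in winter (median 405). It rose 1.56-fold (log2 fold change 0.64 ± 0.14, adjusted p = 0.00306) with all 6 bears higher, although in bear 1509 the difference was 0.02 and the seasons overlapped through that bear and bear 1317. SLC25A20, the carnitine/acylcarnitine translocase of the inner membrane, had 49.4 to 74.1 CPM in summer (median 62.7) and 92.0 to 154 CPM in winter (median 135). No winter library reached down to a summer library, and the fold change was 2.06 (log2 fold change 1.05 ± 0.14, adjusted p = 9.03e-05). The smallest rise was again in bear 1317 (0.31), against 1.05 to 1.41 in the other 5.

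CPT2, which hands the acyl group back to CoA on the matrix side, did not follow its partners. It had 30.3 to 55.6 CPM in summer (median 40.9) and 22.7 to 35.8 CPM in winter (median 30.8). The fall of −0.47 ± 0.16 (adjusted p = 0.0284) was present in 5 of 6 bears and ran from −1.29 in bear 1317 to 0.20 in bear 1511. It lost its call without bear 1305 (0.0579), 1316 (0.0509) or 1512 (0.0676), and without bear 1317 it was −0.30 (0.125). Set against each other within each bear, the change of CPT1B exceeded that of CPT2 in 6 of 6 bears, by 0.41 to 1.46 log2 units (median 1.25), and that of SLC25A20 exceeded it by 1.02 to 1.87 (median 1.54). Differences within bears are given here and further on as a description, with no test, since the pairs were chosen after their values were seen.

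MLYCD, malonyl-CoA decarboxylase, removes the inhibitor of CPT1. It had 22.4 to 36.6 CPM in summer (median 28.1) and 37.7 to 55.2 CPM in winter (median 43.7), with no overlap, and rose 1.58-fold (0.66 ± 0.13, adjusted p = 0.00137). ACACB, the acetyl-CoA carboxylase that makes malonyl-CoA at the mitochondrial surface and is no member of the module, had 136 to 305 CPM in summer (median 185) and 90.2 to 122 CPM in winter (median 96.7). It fell by 1.04 on the log2 scale (SE 0.19, adjusted p = 0.000823) in 6 of 6 bears, also without overlap. The change of MLYCD was 1.44 to 1.87 log2 units above that of ACACB in every bear (median 1.61). CRAT, the carnitine acetyltransferase that exports acetyl groups, gave 0.14 ± 0.20 (adjusted p = 0.594), with 3 bears higher and 3 lower.

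**Figure D2:**
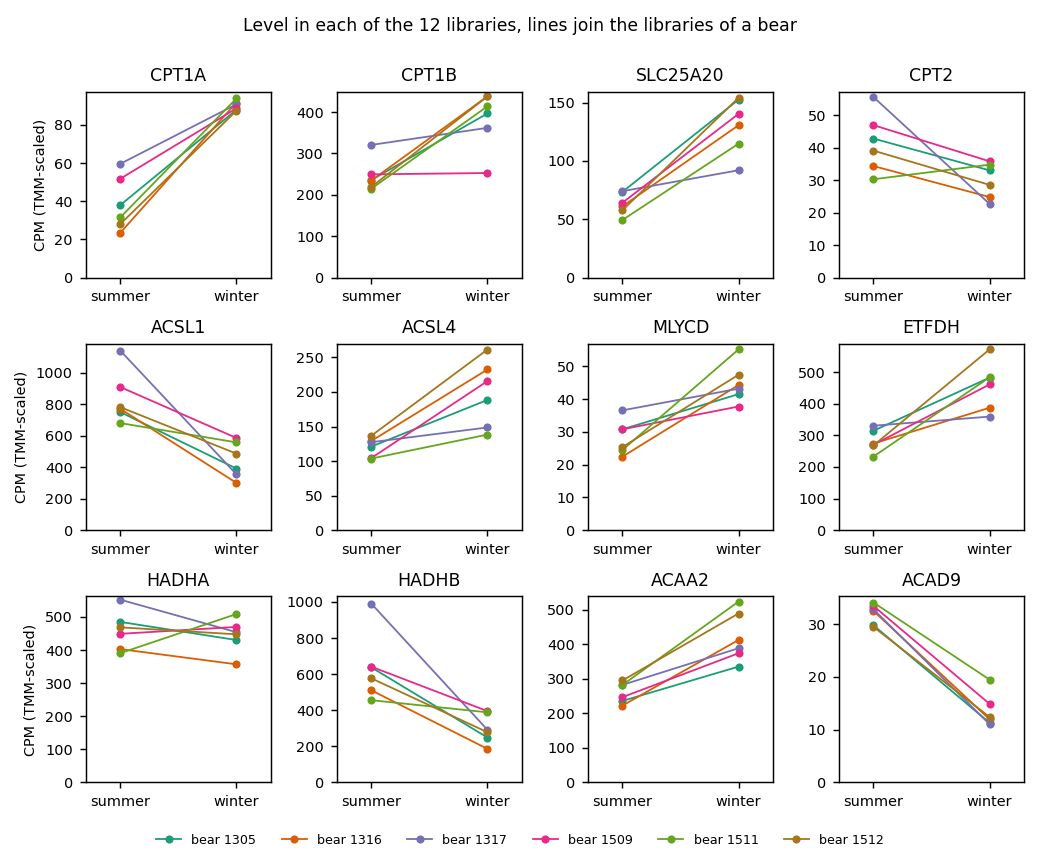
TMM-scaled CPM of 12 genes in summer and winter, each panel on its own linear axis from 0, with a line for each of the 6 bears. CPT1A converged on 87.4 to 93.8 CPM in winter from 23.5 to 59.6 CPM in summer, CPT1B was nearly level in bear 1509, and HADHA stayed between 357 and 552 CPM while HADHB fell in all 6 bears.

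Acyl-CoA dehydrogenases open each turn of the spiral. Of the 7 straight-chain genes, 0 were called higher and 2 (28.6%) lower by edgeR, where 19.6% and 19.9% of all tested genes were. By an unadjusted p below 0.05 the counts were 0 and 4, and DESeq2 likewise called 0 higher. ACADVL, the very-long-chain enzyme, had 460 to 614 CPM in summer (median 529). In winter 5 libraries lay at 258 to 396 CPM, all below the summer range, and that of bear 1511 at 675 CPM, above it. The change of −0.44 ± 0.19 was not called (adjusted p = 0.0819), and without bear 1511 it was −0.70 with an adjusted p of 0.00186. It reached a call too in DESeq2 blocked by bear (0.0212), limma voom (0.0417) and library totals used instead of TMM (0.0486). ACADM, the medium-chain enzyme, had 796 to 1165 CPM in summer (median 846) and 844 to 1516 CPM in winter (median 1210). It was higher in 5 of 6 bears, and the change of 0.32 ± 0.17 did not pass the test (adjusted p = 0.157, 0.0539 to 0.374 over the alternatives).

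ACADL and ACADS, the long-chain and short-chain enzymes, gave −0.19 ± 0.16 (adjusted p = 0.354) and −0.31 ± 0.19 (0.192). ACADS was called lower without bear 1511 (−0.50, 0.0273). Leaving out bear 1511 thus brought a call for both ACADVL and ACADS. ACAD9, a dehydrogenase that is also an assembly factor of respiratory complex I, showed the largest fall of the 40 genes. It had 29.5 to 34.1 CPM in summer (median 32.7) and 11.0 to 19.5 CPM in winter (median 12.2). The summer libraries lay close together and all above the winter libraries, and the level was 2.37-fold lower in winter (−1.25 ± 0.14, adjusted p = 2.42e-05). ACAD11, a long-chain enzyme, was lower in 6 of 6 bears (−0.51 ± 0.19, adjusted p = 0.0438), a call that was lost without bear 1316 (0.0602), 1317 (0.122), 1509 (0.103) or 1512 (0.091). The related ACAD10 gave −0.40 ± 0.16 and was not called (adjusted p = 0.0535). Blocking by bear gave it a call (−0.39, 0.0385), and it was also called in DESeq2 without that block (0.0439) and with it (0.0492), with library totals (0.0308) and without bear 1509 (0.0338).

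Both dehydrogenases of branched-chain acyl-CoA, which serve amino acid breakdown rather than the oxidation of straight fatty acids, were lower. ACADSB, the short/branched-chain enzyme of isoleucine breakdown, had 119 to 179 CPM in summer (median 142) and 57.6 to 82.4 CPM in winter (median 65.8). It was 2.12-fold lower (−1.09 ± 0.12, adjusted p = 2.29e-05), and the seasons did not overlap. ACAD8, the isobutyryl-CoA dehydrogenase of valine breakdown, had 23.3 to 31.2 CPM in summer (median 28.4) and 12.5 to 18.8 CPM in winter (median 16.1), a 1.75-fold fall without overlap (−0.80 ± 0.11, adjusted p = 0.000122). The bears differed little in ACAD8, from −0.90 to −0.53.

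The electron transfer flavoprotein takes electrons from all these dehydrogenases, and its subunits and its acceptor changed in opposite directions where they were called. ETFDH, the membrane oxidoreductase that passes the electrons to ubiquinone, had 233 to 331 CPM in summer (median 272) and 360 to 573 CPM in winter (median 472). It rose 1.63-fold (0.70 ± 0.13, adjusted p = 0.000786), with no overlap. The rise was smallest in bear 1317 (0.12). ETFA, the alpha subunit of the flavoprotein itself, had 365 to 461 CPM in summer (median 424) and 239 to 377 CPM in winter (median 316). It fell by 0.42 on the log2 scale (SE 0.12, adjusted p = 0.0106) in 6 of 6 bears. ETFB, the beta subunit, gave −0.39 ± 0.21 and was not called (adjusted p = 0.166), but blocking by bear brought a call in edgeR (−0.40, 0.0471) and in DESeq2 (0.033). Within each of the 6 bears the change of ETFDH lay 0.73 to 1.42 log2 units above that of ETFA (median 1.15).

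The hydratase, dehydrogenase and thiolase steps held 4 falls, 1 rise and 1 gene that was not called. The falls are 66.7% and the rise 16.7% of these genes, where 19.9% of all tested genes were called lower and 19.6% higher. HADHA and HADHB encode the subunits of the mitochondrial trifunctional protein, which carries out these steps on long chains. HADHA had 390 to 552 CPM in summer (median 459) and 357 to 509 CPM in winter (median 451). Its levels overlapped widely between seasons, with 2 bears higher and 4 lower, and the change was −0.04 ± 0.11 (adjusted p = 0.788). HADHB had 456 to 991 CPM in summer (median 607) and 186 to 395 CPM in winter (median 285). Every winter library was below every summer library, and the level was 2.13-fold lower in winter (−1.09 ± 0.21, adjusted p = 0.00114). HADHB fell least in bear 1511 (−0.23) and most in bear 1317 (−1.77), and in those bears HADHA gave 0.38 and −0.28. The change of HADHA lay above that of HADHB in 6 of 6 bears, by 0.61 to 1.48 log2 units (median 1.09).

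ACAA2, the mitochondrial thiolase of medium chains, rose 1.61-fold. It had 223 to 295 CPM in summer (median 265) and 336 to 524 CPM in winter (median 401), with no overlap and a narrow range of rises over the bears, from 0.46 to 0.89 (0.69 ± 0.12, adjusted p = 0.000775). HADHB carries the thiolase of long chains, and the change of ACAA2 exceeded that of HADHB by 1.12 to 2.35 log2 units in the 6 bears (median 1.82). The enzymes of short and medium chains before the thiolase were lower in 6 of 6 bears. HADH, the 3-hydroxyacyl-CoA dehydrogenase, gave −0.62 ± 0.12 (adjusted p = 0.00157) and overlapped between seasons, from 258 to 414 CPM in summer and from 191 to 272 CPM in winter. ECHS1, the short-chain hydratase, had 139 to 176 CPM in summer and 77.6 to 131 CPM in winter, without overlap (−0.56 ± 0.12, adjusted p = 0.00253). HSD17B10, which acts on short branched chains and is also a subunit of mitochondrial RNase P, had 86.3 to 102 CPM in summer and 54.0 to 77.9 CPM in winter, again without overlap (−0.54 ± 0.10, adjusted p = 0.000775).

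The 3 auxiliary enzymes that move or reduce double bonds of unsaturated fatty acids were all called lower, where 19.9% of all tested genes were. ECI1, a mitochondrial enoyl-CoA isomerase, had 36.5 to 77.1 CPM in summer (median 50.9). In winter 5 bears had 16.7 to 25.6 CPM and bear 1511 had 53.8 CPM. The change was −0.86 ± 0.25 (adjusted p = 0.0141), and −0.67 (0.0656) without bear 1316, which had the highest summer level. ECI2, the other isomerase, had 154 to 265 CPM in summer (median 181) and 74.9 to 158 CPM in winter (median 102), and was lower in 6 of 6 bears (−0.85 ± 0.18, adjusted p = 0.00269). DECR1, the 2,4-dienoyl-CoA reductase, had 54.7 to 118 CPM in summer (median 81.4) and 53.1 to 75.3 CPM in winter (median 58.0). Its fall of −0.43 ± 0.16 stood at the limit (adjusted p = 0.048). Blocked by bear it was −0.40 (0.0635). The adjusted p was 0.0637 in limma voom and 0.0501 both with RLE factors and with edgeR's own low-count filter, and 0.16, 0.13, 0.133 and 0.0899 without bear 1305, 1316, 1317 and 1512.

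Of the peroxisomal enzymes, which shorten very long and branched chains, only ACOX3 passed the test. ACOX3, the oxidase of branched acyl-CoA, had 41.8 to 71.9 CPM in summer (median 47.7) and 22.3 to 32.9 CPM in winter (median 28.4). It was 1.93-fold lower without overlap (−0.95 ± 0.15, adjusted p = 0.000286). HSD17B4, the D-bifunctional protein, had 35.6 to 63.2 CPM in summer (median 57.0) and 38.6 to 53.6 CPM in winter (median 47.5). Its change of −0.20 ± 0.13 was not called (adjusted p = 0.254), and neither was that of the peroxisomal thiolase ACAA1 (−0.08 ± 0.14, adjusted p = 0.682), although 5 of 6 bears were lower in both.

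The 6 bears did not take part equally. The median of the 40 single-bear differences was −0.43 in bear 1305, −0.42 in bear 1316, −0.63 in bear 1317, −0.40 in bear 1509, −0.30 in bear 1512 and 0.04 in bear 1511. In bear 1317, 33 of the 40 genes were lower in winter, and in bear 1511, 19 of 40 were. The lowest of the 6 differences of a gene fell in bear 1317 for 26 of the 40 genes, and the highest in bear 1511 for 20 and in bear 1509 for 11. The same medians over all tested genes lay between −0.03 and 0.01 in the 6 bears. The fast fibre markers, of which 7 of 10 were tested, summed to 35175 CPM in the summer library of bear 1317 and to 43604 to 72690 CPM in the other summer libraries, with none at 0 in any library. In winter they summed to 41206 to 50687 CPM, and 3 of 7 were called lower. The slow fibre markers, of which 7 of 8 were tested, summed to 11752 to 24201 CPM in summer and 13603 to 20942 CPM in winter, none at 0 and 1 called lower. The part of fibre type in these differences between bears was not tested. The 8 fibroblast markers, 5 of them called lower, summed to 4335 to 11534 CPM in summer and 305 to 1885 CPM in winter. The collagen genes COL1A1 (−4.59), COL1A2 (−3.74) and COL3A1 (−4.17) held most of the summer sum. LUM (−1.93) and MFAP5 (−1.16) were also called lower, and PDGFRA (−0.49), DCN (−0.75) and FBLN1 (−1.11) were not called. The 7 macrophage markers, 4 called lower, summed to 61.1 to 114 CPM in summer and 41.9 to 74.2 CPM in winter. No marker of these lists was at 0 in any library, and their part in the falls of the module was not tested.

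**Figure D3:**
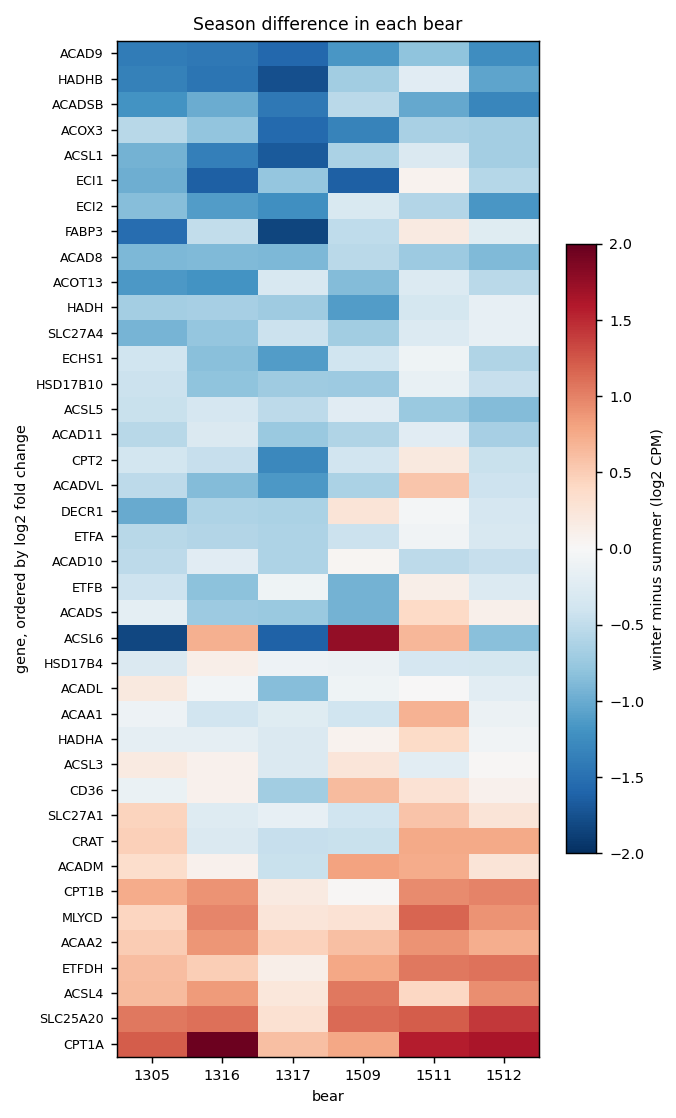
Winter minus summer difference in log2 CPM for the 40 genes (rows, ordered by the edgeR log2 fold change) in each of the 6 bears (columns), on a colour scale from −2 to 2. The lowest difference of a gene lies in bear 1317 for 26 of the 40 genes, and the highest in bear 1511 for 20.

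On the scale of raw reads, the 40 genes together took up 0.744 to 1.24% of a summer library and 0.576 to 0.913% of a winter library. The share dropped from 1.24 to 0.576% in bear 1317, from 1.01 to 0.737% in bear 1305, from 0.744 to 0.618% in bear 1316, from 0.877 to 0.824% in bear 1512 and from 0.952 to 0.913% in bear 1509. It went from 0.787 to 0.910% in bear 1511. The winter share was lower in 5 of 6 bears, with a mean difference of −0.172 percentage points, which was not tested. Without bear 1317 the mean over the other 5 bears was −0.0730. This sum is weighted to the genes with most reads, such as FABP3, ACADM and ACSL1.

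**Figure D4:**
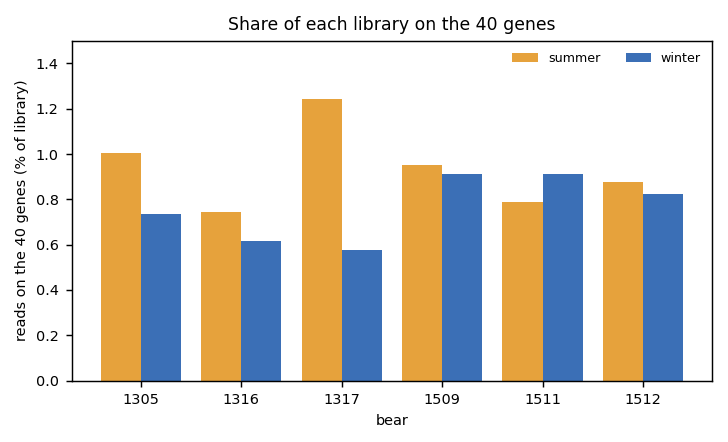
Percentage of each library's reads that fell on the 40 genes, in summer (orange) and winter (blue), for the 6 bears. The largest drop is in bear 1317 (1.24 to 0.576%), and only bear 1511 has a larger winter share (0.787 to 0.910%).

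The rest of the pathway was taken from a list of 72 symbols by function, of which 60 were tested. Of these, 5 (8.33%) were called higher and 31 (51.7%) lower, where 19.6% and 19.9% of all tested genes were. The median log2 fold change of the 60 was −0.54. The enzymes around malonyl-CoA and carnitine supply were called lower in 5 of 7 and higher in 0 of 7, with 0 higher also by unadjusted p and in DESeq2. DESeq2, blocked by bear or not, and limma voom called 4 of them lower, with no call for ACACA. Besides ACACB these included TMLHE (−0.87 ± 0.17) and ALDH9A1 (−0.61 ± 0.14) of carnitine synthesis, and CROT (−0.65 ± 0.16), the peroxisomal carnitine octanoyltransferase. ACACA, the carboxylase of fatty acid synthesis, had 12.6 to 184 CPM in summer (median 27.2) and 11.2 to 19.0 CPM in winter (median 12.3). Its log2 fold change of −1.89 ± 0.55 was called in edgeR (adjusted p = 0.0148), with lower values in 5 of 6 bears. The call did not hold in limma voom (adjusted p = 0.0569) or in DESeq2 blocked by bear (0.0654), and DESeq2 without the block gave no adjusted p. The 184 CPM were in the summer library of bear 1316, in which the adipocyte markers summed to 1424 CPM. Without bear 1316 the change of ACACA was −0.75 (adjusted p = 0.0236), and blocked by bear it was −1.19 (0.0488). The part of adipocytes in it was not tested.

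The other mitochondrial enzymes held 12 falls in 15 genes and 0 rises (0 also by unadjusted p and in DESeq2), with a median of −1.02. The largest were PCCB (−2.32 ± 0.21), a propionyl-CoA carboxylase subunit, and MUT (−2.07 ± 0.19), methylmalonyl-CoA mutase, both lower in 6 of 6 bears without overlap. PCCA (−0.87 ± 0.11) and MCEE (−0.53 ± 0.11) of the same route, propionyl-CoA handling, fell less than the median of the list. IVD (−1.20 ± 0.16) and GCDH (−1.16 ± 0.16), dehydrogenases of leucine and lysine breakdown, fell with ACADSB and ACAD8. Among the other uptake, binding and activation genes 2 of 18 rose and 8 fell. ACSM5, a medium-chain synthetase, had the largest fall of the 60 genes (−2.99 ± 0.30). SLC27A5, best known from bile acid and fatty acid activation in liver, rose by 0.79 ± 0.14, and ACBD6, an acyl-CoA-binding protein with 24 to 86 reads per library, by 0.68 ± 0.23 (adjusted p = 0.0301). Without bear 1317 ACBD6 gave 0.45 with an adjusted p of 0.125, and without bear 1512 the adjusted p was 0.0869.

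The other thioesterases, which release free fatty acid or acetate from CoA, held the largest rises of the 60 genes. ACOT7 (2.46 ± 0.34, 9 to 242 reads per library) and ACOT12 (1.98 ± 0.39, 2 to 47 reads) were higher in 6 of 6 bears, and ACOT11 (−2.95 ± 0.45) was lower in 6 of 6, next to ACSM5 in size. The other peroxisomal genes were lower in 5 of 13 and higher in 1. ABCD2, a transporter of very long chains with 2 to 177 reads per library, gave −2.82 ± 0.52. The transporter ABCD3 (−0.62 ± 0.12) fell too. ECH1, a dienoyl-CoA isomerase, was the only rise (0.43 ± 0.14, adjusted p = 0.025), and lost its call without bear 1305 (0.0803), 1511 (0.106) or 1512 (0.0577). ACACA, ACACB, TMLHE, ALDH9A1, CROT, PCCA, MCEE, IVD, GCDH and ABCD3 were singled out after their values were seen.

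In the other routes of fuel oxidation falls also outnumbered rises, where 19.6% of all tested genes were called higher and 19.9% lower. Of 16 tested TCA cycle genes, 12 were called lower and 0 higher in edgeR (14 and 0 by unadjusted p under 0.05), and the median change was −0.67. Of 38 complex I subunits, 19 were lower and 0 higher (24 and 0 by unadjusted p), and the median was −0.45. Of 13 glycolytic genes, 9 were lower and 1, GPI, was higher, with a median of −0.75. DESeq2 called 0 TCA cycle and 0 complex I genes higher as well. GPI, glucose-6-phosphate isomerase, gave 0.34 ± 0.13 (adjusted p = 0.0462) and was not called with library totals, with no filter or without bear 1305, 1316, 1317, 1511 or 1512. Whether the module differed from these lists was not tested.

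**Figure D5:**
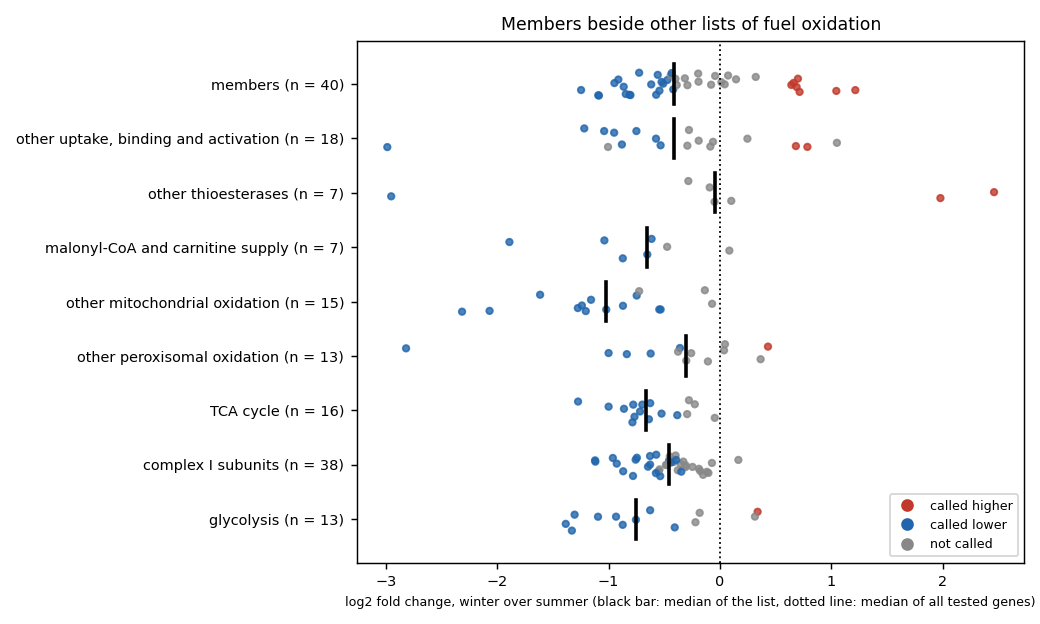
Log2 fold change of winter over summer for the 40 genes of the module, the 60 other tested genes of the pathway in 5 lists, and 3 lists of other fuel oxidation. Each dot is a gene (red for called higher, blue for lower, grey for not called), the black bar is the median of the list, and dots are shifted vertically only to be visible. The module has 7 red dots, and the TCA cycle and complex I lists have 0. The 7 are 17.5% of the module, where 19.6% of all tested genes were called higher.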

How the data were processed

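Stranded poly-A libraries of 6 bears in 2 seasons were sequenced by the authors as single reads of 50 bases, aligned to the assembly ASM358476v1 with TopHat2 2.1.1 and counted per gene by strand with featureCounts 1.6.2, as the labels and methods give it. The deposited values are these raw counts, whole numbers that were neither normalized nor filtered. The libraries were run on several lanes, and which library was on which lane is not in the labels, so that differences between lanes were not tested. Depth is given with the results, and the precision of a gene with few reads is limited by its counts, which are printed where they are low.

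Genes under 30 reads in total were left out, as in the study. Counts were scaled by TMM, and winter was compared with summer in edgeR 4.0.16 (R 4.3.3) with glmQLFit and glmQLFTest, season being the only term, and with Benjamini-Hochberg adjustment over 17290 genes. The standard error is the size of the log2 fold change over the square root of F. CPM are counts over TMM-scaled library sizes, and single-bear differences are differences of log2 CPM with a prior count of 2. Alternatives were the bear as a replicate block, DESeq2 1.42.0 with and without it, limma 3.58.1 voom, RLE factors, library totals, no filter, filterByExpr, and each bear left out. The fits were tested on simulated data. The libraries with the same number come from the same animal by the study's methods. Centred on the season means, the libraries of a bear correlated at 0.0903 to 0.344, against a median of −0.0634 and at most 0.142 over 30 pairs of different bears. No library was a copy of another of its season, with a chi-square per gene of at least 30.2.

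The members, role groups, marker lists and other lists were chosen with earlier results of these data known. Every member is accounted for. Levels are given for the members that carry the main step of each role. They are also given for the called members whose rise or fall was among the 6 largest. Among the called genes of the other pathway lists, the 5 largest rises and 5 largest falls are named. A search of promoters for motifs was not made here. Sequences were not used.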

Additional observations from a re-analysis of the deposited data

Results flagged for a closer look

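In 6 of the 80 combinations of a member and a season, the highest or lowest of the 6 libraries lay farther from its neighbour than Dixon's 95% limit for 6 samples, which chance alone gives in about 1 of 20 groups. CPT1B was at 8.33 log2 CPM in the summer library of bear 1317 and at 7.75 to 7.96 in the other summer libraries, and at 7.98 in the winter library of bear 1509 against 8.50 to 8.78 in the other winter libraries. These libraries are the ones through which the seasons of CPT1B overlapped, and the gene was called higher with either bear left out. ECI1 was at 5.75 log2 CPM in the winter library of bear 1511 and at 4.07 to 4.68 in the other winter libraries. ACAA1 was at 4.90 in the same library against 4.14 to 4.41. DECR1 was at 6.24 in the winter library of bear 1509 against 5.73 to 5.88, and HSD17B4 at 5.16 in the summer library of bear 1316 against 5.79 to 5.98 in the other summer libraries.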

How the results depend on the processing

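All 7 rises of the module held under every alternative, as did 13 of the 19 falls. The count of falls ran from 14 to 20 with a bear left out and from 18 to 22 under the other alternatives (20 with the replicate block), and the median of the 40 genes from −0.50 to −0.34 and from −0.48 to −0.39. The counts past the limits of a differentially expressed gene ran from 5 to 7 higher and from 8 to 14 lower with a bear left out, and library totals gave 5 and 13. The calls that moved (FABP3, SLC27A4, CPT2, ACADVL, ACADS, ACAD10, ACAD11, ETFB, ECI1 and DECR1) are given with their values in the results. The replicate block, the same animal in both seasons, turned the calls of DECR1, ACAD10 and ETFB and no other member's call. It raised the complex I genes called lower from 19 to 23.

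The log2 fold changes that turned in sign were all uncalled, and all but that of ACSL6 (−0.29 ± 0.65) were small. CD36 went to −0.0376 with library totals and ran from −0.0547 to 0.1877 with a bear left out (−0.0055 without bear 1511). SLC27A1 went to −0.0058 with library totals and from −0.0242 to 0.1656 (−0.0101 without bear 1305). ACSL3 went to −0.0663 with library totals, to −0.0004 with no filter and from −0.0327 to 0.0775 (−0.0282 without bear 1509). With a bear left out ACSL6 ran from −0.8605 to 0.28, CRAT from −0.0174 to 0.2702 and HADHA from −0.1254 to 0.0129. Of the other pathway genes 3 to 5 were called higher with a bear left out, 3 of them without bear 1512. The count of glycolytic genes called higher went from 1 to 0 with library totals and with no filter. It was also 0 without bear 1305, 1316, 1317, 1511 or 1512. Library totals lowered the median of all genes by 0.08 (shift −0.0788). The mean difference in read share was −0.123 percentage points on TMM-scaled library sizes and ran from −0.231 to −0.0730 with a bear left out, a choice made after the data were seen. The causes were not tested. The part of depth in the results of ACSL6, SLC27A4 and the other genes with few reads was not tested either.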
